A study of Rattus norvegicus with 49 samples.

Results

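The genes examined here are 37 genes whose products copy the DNA or part the chromosomes of a dividing cell. They were chosen by gene symbol, with earlier results of these data known. Each was read from the probe that was brightest over both colours of all arrays. A probe was matched to 33 of the 37, and Mcm5, Bub1b, Top2a and Mki67 were not matched to one. These 33 probes were read among 30367 probes that measure transcripts. Of the 33, 30 were tested among the 17661 probes that stood well above background in the liver channel on 4 or more arrays of some group, while Ccne2, Cdc6 and Rrm1 missed that filter and have values but no test.

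The livers came from inbred F344 rats of both sexes that were 7 to 8 weeks old when dosing began. Furan, a hepatotoxic contaminant of heated food that causes liver tumours in rodents, was given in corn oil by gavage on 5 days of the week over 90 days, with a top dose of 2 mg/kg, middle doses of 0.5 and 0.12 mg/kg and a lowest dose of 0.03 mg/kg. The 0 mg/kg controls of each sex belonged to the same gavage scheme. Each sex and dose made a group of 5 rats, and all have arrays here except at 0.03 mg/kg, where 4 males do. Livers were taken 24 h after the last dose. RNA of each liver, in Cy5, shared an array with a commercial universal rat reference RNA, in Cy3, and no dyes were swapped. Values are log2 ratios of liver over this reference, in which a difference of 1 is a fold of 2. Whole liver RNA was measured, so fewer cells of a type and less RNA per cell cannot be told apart.

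A cell that leaves rest makes D and E type cyclins in G1, loads the MCM helicase onto replication origins with the help of Cdc6 and Cdt1, and then raises the supply of deoxynucleotides through ribonucleotide reductase (Rrm1, Rrm2) and thymidylate synthase (Tyms). Later, cyclins A2, B1 and B2 drive the kinase Cdk1 into mitosis, where kinases of the Plk and Aurora families, the spindle checkpoint and kinesin motors part the chromosomes. Most hepatocytes of an adult liver rest outside this cycle, but enter it after loss of liver mass or after injury. Many S phase genes are controlled through E2F sites and many G2 and M phase genes through CHR elements and CCAAT boxes close to the start of transcription.

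All 33 genes lay below the reference RNA on average over the arrays, from a mean log2 ratio of -4.22 for Cdk1 to -0.45 for Tyms. In the liver channel 12 genes stood well above background on 48 or 49 of the 49 arrays, and 9 did so on 24 or fewer. Ccne2, the second E type cyclin, was above background on 0 arrays. Cdc6 was so on 9 arrays and Rrm1, the large subunit of ribonucleotide reductase, on 5. In the female groups Rrm1 was not well above background on any array, so it has no fold between the sexes. The 8 hepatocyte markers, from albumin to tyrosine aminotransferase, were above background on 48 or 49 arrays, and the mean ratio of albumin over the arrays was 8.40.

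The arrays came from 8 slides, and 3 facts about them touch every value. Slides 5 and 6 held 10 furan arrays and no control array, whereas slides 1 to 4 each held 1 male and 1 female control. On slides 1 to 4 between 60.2 and 71.1% of spots were well above background in the liver channel and the median ratio of the 33 genes on an array lay between -2.89 and -2.25. On slides 5 and 6 these were 37.9 to 46% and -2.09 to -1.52, so the ranges did not overlap, although the reference channel was above background at 73 to 76% and 74.6 to 79.3% of spots. Male 26 at 0.03 mg/kg, on slide 8, was a dim array with 5.06% of spots above background in the liver channel and 9.83% in the reference channel. It had 0 of the 33 genes above background and a median ratio of -0.077.

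**Figure D1:**
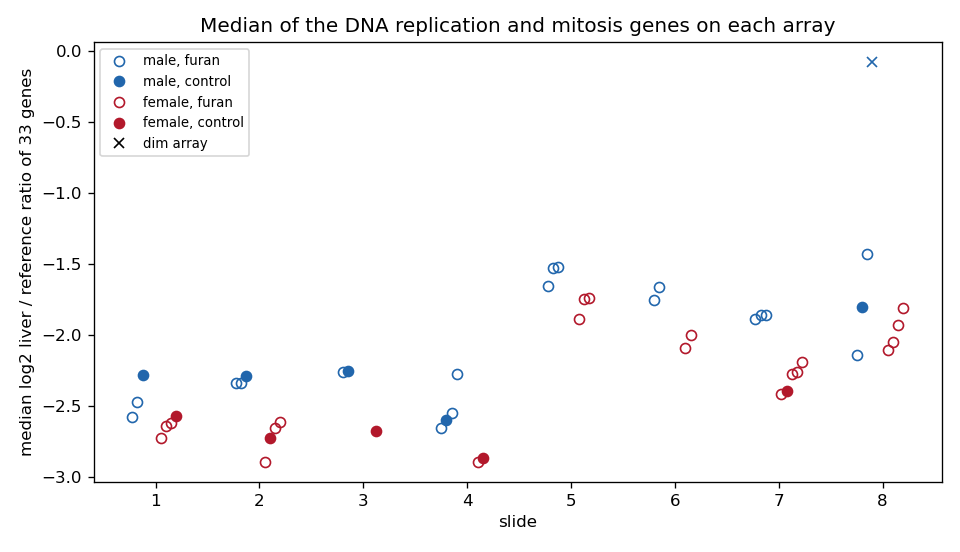
Median log2 liver over reference ratio of the 33 genes on each array (vertical axis) against the slide that carried it, with filled points for controls and open points for furan. The 10 arrays of slides 5 and 6 sit between -2.09 and -1.52, above all 23 arrays of slides 1 to 4, and the dim array, a cross, sits at -0.077.

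In the fit with group and slide, 29 of the 33 genes were higher on slides 5 and 6 than on slides 1 to 4, with a median shift of 0.60 on the log2 scale, against -0.13 for all 17661 tested probes, of which 36.4% were higher. The shift was larger where the signal was lower. Among the 12 genes above background on at least 48 arrays its median was 0.43 and 8 were higher, and among the other 21 genes it was 1.02 and all 21 were higher. Mcm6, a subunit of the MCM helicase above background on 21 arrays, shifted by 1.86, while Rrm2 and Mcm7, above background on 48 arrays, shifted by -0.16 each. The slide term of limma passed for 26 of the 30 tested genes, and for 87.8% of all probes. Changes below are therefore given from the fit with group means alone and, beside it, from the fit with slide as a fixed block.

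**Figure D2:**
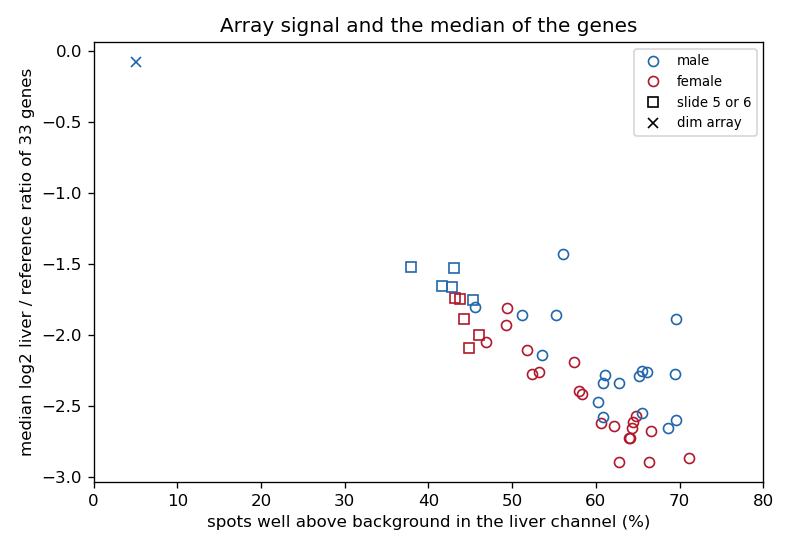
Share of spots well above background in the liver channel of each array (horizontal axis, %) against the median log2 liver over reference ratio of the 33 genes on it (vertical axis), for male and female livers, with squares for slides 5 and 6. Slides 5 and 6 have 37.9 to 46% such spots and medians of -2.09 to -1.52. Male control 6 on slide 8 (45.5%, -1.80) lies within both ranges, and the dim array lies far below in signal. Male 87 at 2 mg/kg (56.1%, -1.43) and male 68 at 0.5 mg/kg (69.6%, -1.89) have higher medians than arrays of like signal.

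Promoters were read from RefSeq on the GRCr8 build as 250 bases before to 50 bases after the start of each gene, and 28 of the 37 genes were in that table. Aurkb, Ccna2, Ccnd1, Ccne2, Cdc6, Foxm1, Mcm4, Rrm2 and Tpx2 were not. Letters were searched on both strands. The E2F form TTTGGCGC was found in 4 of 28 (14.3%), namely Cdt1, Mcm5, Mcm6 and Tyms, and in 0.493% of all 33469 promoters. A second E2F form, TTTCCCGC, was found in 3 of 28, Mcm3, Mcm5 and Mcm7, against 0.974% of all promoters. The CHR letters TTTGAA were found in 14 (50%) against 18.3% and CCAAT in 20 (71.4%) against 37.5%. No 2 of these motifs overlap by their letters in the promoters printed here.

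The promoters of 4 genes are shown, 2 genes of S phase and 2 of mitosis on which the results below turn, each written 5′ to 3′ in the direction of its gene with TTTGGCGC, TTTGAA and CCAAT (or ATTGG, its other strand) in capitals. They are Tyms (chr9:120776034-120776333, minus strand), Mcm6 (chr13:42404303-42404602, minus strand), Ccnb2 (chr8:79981609-79981908, minus strand) and Cdk1 (chr20:19265043-19265342, plus strand).
Tyms: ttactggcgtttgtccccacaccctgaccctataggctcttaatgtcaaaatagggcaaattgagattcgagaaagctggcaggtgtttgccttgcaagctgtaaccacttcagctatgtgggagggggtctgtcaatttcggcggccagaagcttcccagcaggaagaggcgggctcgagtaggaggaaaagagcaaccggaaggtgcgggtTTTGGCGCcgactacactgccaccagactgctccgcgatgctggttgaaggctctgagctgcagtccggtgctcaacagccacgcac
Mcm6: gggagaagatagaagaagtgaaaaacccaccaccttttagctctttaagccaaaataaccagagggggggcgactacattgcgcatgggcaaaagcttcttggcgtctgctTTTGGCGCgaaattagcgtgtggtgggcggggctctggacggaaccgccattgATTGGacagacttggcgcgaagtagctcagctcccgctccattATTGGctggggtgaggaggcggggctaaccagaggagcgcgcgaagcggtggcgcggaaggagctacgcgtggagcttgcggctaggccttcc
Ccnb2: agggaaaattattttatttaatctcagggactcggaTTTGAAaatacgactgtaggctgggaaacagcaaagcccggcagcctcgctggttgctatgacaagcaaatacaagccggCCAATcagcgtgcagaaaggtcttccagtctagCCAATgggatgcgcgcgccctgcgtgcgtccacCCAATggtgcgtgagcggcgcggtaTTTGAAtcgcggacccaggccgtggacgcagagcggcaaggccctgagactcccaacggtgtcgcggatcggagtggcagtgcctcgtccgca
Cdk1: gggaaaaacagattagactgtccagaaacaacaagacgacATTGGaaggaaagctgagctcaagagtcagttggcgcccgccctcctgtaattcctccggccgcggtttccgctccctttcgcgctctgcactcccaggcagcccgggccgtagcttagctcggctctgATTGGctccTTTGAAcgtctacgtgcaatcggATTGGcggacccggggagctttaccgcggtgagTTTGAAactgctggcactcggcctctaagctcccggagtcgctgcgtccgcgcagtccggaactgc
In Tyms the E2F letters begin 37 bases before the start and in Mcm6 139 bases before it, where 2 CCAAT boxes also lie, at 86 and 43 bases. Ccnb2 holds 3 CCAAT boxes, at 134, 101 and 68 bases, between CHR letters at 214 and 43 bases. Cdk1 holds CHR letters at 72 and 16 bases and CCAAT boxes at 210, 81 and 49 bases. A match is a description of the letters and not a measured site.

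At the highest dose 1 of the 30 tested genes rose in each sex, and it was Tyms, which makes the thymidine nucleotide needed for DNA. In control males its log2 ratio was -0.77, -0.71, -0.54, -0.48 and -0.22, and in males at 2 mg/kg it was -0.10, 0.13, 0.19, 0.36 and 0.41. Every male at 2 mg/kg lay above every control male. In control females it was -1.14, -1.02, -0.93, -0.90 and -0.62, and at 2 mg/kg -0.57, -0.43, -0.38, -0.22 and 0.06. The female groups did not overlap either. The male change was 0.74 ± 0.15 (SE), a fold of 1.67 (limma, Benjamini-Hochberg adjusted p 0.00334), and the female change 0.61 ± 0.15, a fold of 1.53 (adjusted p 0.0437). Over all tested probes 2.22% were called in males and 0.668% in females, where a call needs an adjusted p of at most 0.05 and a fold of at least 1.5.

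Tyms rose by 0.64 in males in the fit with slide as a block (fold 1.56, limma adjusted p 0.000424), where 3.81% of all probes were called. In females the blocked change was 0.40 (adjusted p 0.0723) and was not called, with 0.657% of all probes called. Without the dim array the adjusted p was 0.000981 in males and 0.0226 in females, with 4.19% and 1.75% of all probes called. The male call was lost with median centring of the arrays (0.67, limma adjusted p 0.494) and, by the limit on fold alone, in the liver channel taken without the reference (0.54, 0.0125), in which Mcm3 was called instead (0.66, 0.0257). The female call was lost when any 1 of 7 arrays was left out, and the female change was 0.52 (adjusted p 0.168) at its lowest, without animal 85 at 2 mg/kg.

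**Figure D3:**
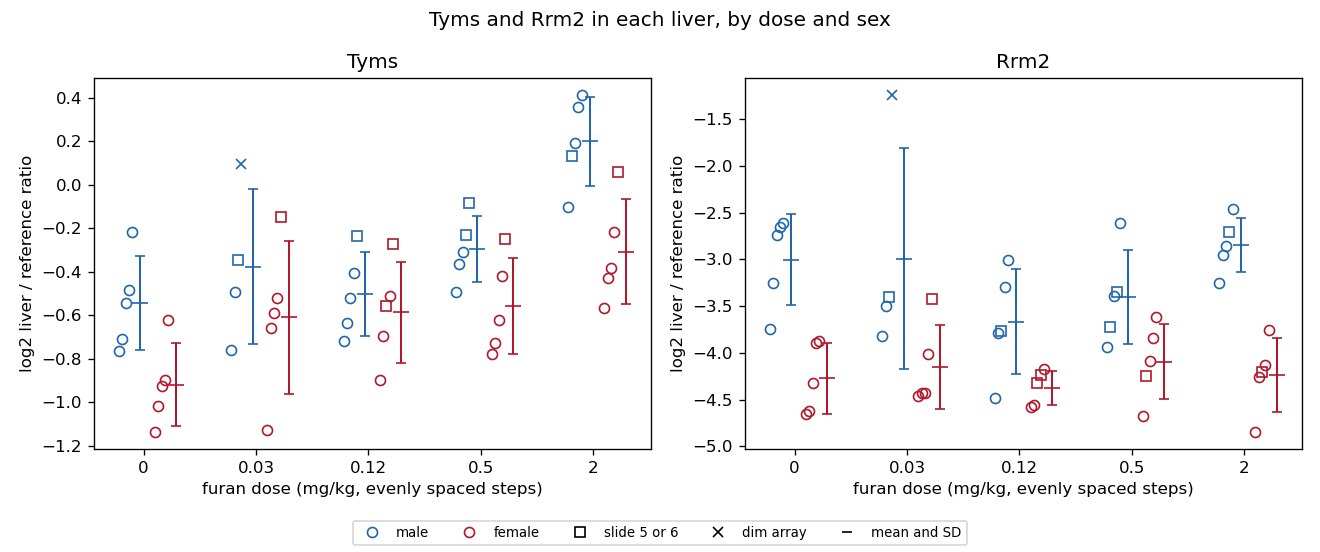
Log2 liver over reference ratio of Tyms (left) and Rrm2 (right) in each liver against furan dose in mg/kg at even steps, for males and females, with mean and SD beside each group. Tyms is higher at 2 mg/kg than in controls of the same sex without overlap, and Rrm2 is higher in control males than in control females, while the cross marks the dim array and squares mark slides 5 and 6.

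An animal at 2 mg/kg can be set beside a control of the same sex on the same slide in 5 cases. On slide 2 the 2 mg/kg animal minus the control gave 0.44 for Tyms in males and 0.51 in females. On slide 4 it gave 1.13 in males, on slide 7 0.19 in females and on slide 8 0.63 in males. All 5 were above 0. The median of the 33 genes over the same pairs was -0.0488 and 0.0776 on slide 2, 0.28 on slide 4, 0.10 on slide 7 and 0.39 on slide 8, so it had no common sign in the males. Each pair is 1 rat against 1 rat and carries no test.

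The other genes of the replication fork and of nucleotide supply did not pass the test at 2 mg/kg. Rrm2, the small subunit of ribonucleotide reductase, read -3.74, -3.26, -2.74, -2.66 and -2.61 in control males and -3.25, -2.96, -2.86, -2.71 and -2.47 at 2 mg/kg, and these ranges overlapped. In females Rrm2 read -4.65, -4.62, -4.33, -3.90 and -3.87 in controls and -4.85, -4.26, -4.20, -4.13 and -3.76 at 2 mg/kg. The changes were 0.16 ± 0.32 and 0.0353 ± 0.32. A dimmer probe of Rrm2, above background on 8 arrays, gave 0.25 ± 0.52 in males and 1.18 ± 0.52 in females (limma unadjusted p 0.638 and 0.0291). Pcna, the sliding clamp of the DNA polymerases, read -2.12, -2.10, -1.96, -1.93 and -1.86 in control males and -1.997, -1.85, -1.83, -1.65 and -1.45 at 2 mg/kg, and its male change of 0.24 ± 0.19 was not called. In females Pcna lay between -2.30 and -1.86 in controls and between -2.26 and -1.81 at 2 mg/kg, and again the groups overlapped.

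Of the G1 cyclins and licensing genes, 9 of 10 were higher at 2 mg/kg in each sex by their means and 0 of the 8 tested were called. Mcm3, a subunit of the MCM helicase, read -3.32, -3.15, -3.07, -3.05 and -2.90 in control males and -2.71, -2.71, -2.59, -2.12 and -1.83 at 2 mg/kg. These male groups did not overlap, yet the change of 0.71 ± 0.34 was not called with all arrays (limma adjusted p 0.239) or with slide as a block (0.59, adjusted p 0.207). Without the dim array the same change passed with an SE of 0.20 (limma adjusted p 0.0216), but without it and with slide as a block Mcm3 was again not called, where 5.07% of all probes were. In females Mcm3 read -3.91 to -3.18 in controls and -3.26 to -2.66 at 2 mg/kg.

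Mcm6 had the largest female change of the 30 tested genes, 1.54 ± 0.61, and it was not called (limma adjusted p 0.15). Its control females read -4.20, -3.76, -3.68, -3.65 and -2.04 and its females at 2 mg/kg -3.20, -1.86, -1.70, -1.55 and -1.32. Control female 4, at -2.04, was on slide 7, and the other 4 were on slides 1 to 4. Its liver signal was above background on 3 control arrays and on 2 arrays at 2 mg/kg, and with slide as a block the change was 0.32 (limma adjusted p 0.378). In males Mcm6 read -3.50, -3.23, -3.05, -2.81 and -1.27 in controls and -3.06, -2.90, -1.57, -1.26 and -1.23 at 2 mg/kg, and the groups overlapped.

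Mcm7, Mcm4 and Ccnd1 gave changes near 0 in at least 1 sex. Mcm7, a helicase subunit with signal on 48 arrays, read -1.54 to -1.24 in control males and -1.51 to -1.07 at 2 mg/kg, and -1.76 to -1.55 and -1.64 to -1.59 in females, a change of 0.0423 ± 0.14 in males and 0.0261 ± 0.14 in females. Mcm4 read -2.58 to -2.28 and -2.48 to -1.94 in the same male groups and -2.85 to -2.31 and -2.89 to -2.23 in the female groups. Ccnd1, the cyclin through which growth signals open G1, was the only gene of the 33 with a negative change at 2 mg/kg in either sex, -0.0386 ± 0.18 in males and -0.0189 ± 0.18 in females.

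Ccnd1 read -1.33, -1.02, -0.90, -0.75 and -0.75 in control males and -1.39, -1.17, -1.03, -0.78 and -0.57 at 2 mg/kg. In females it lay between -1.55 and -1.14 in controls and between -1.75 and -1.16 at 2 mg/kg. Both pairs of groups overlapped. Ccne1, which with its kinase starts S phase, read -1.75 to -1.25 and -1.48 to -0.90 in males and -2.04 to -1.50 and -1.63 to -1.19 in females. Cdt1, a loader of the MCM helicase, read -1.47, -1.29, -1.23, -1.21 and -0.64 in control females and -1.03, -0.50, -0.32, -0.26 and -0.22 at 2 mg/kg. Its female change of 0.71 ± 0.24 was not called (limma adjusted p 0.102), and it was 0.27 with slide as a block.

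All 8 genes of the mitotic cyclins, their kinases and the transcription factor Foxm1 were higher by their means at 2 mg/kg in each sex, with medians of 0.24 in males and 0.55 in females, and 0 were called. When slide was a block 4 of 8 were higher in each sex, and the medians were -0.0032 and -0.0181. Cdk1, the kinase that starts mitosis, read -5.45, -5.35, -4.93, -4.80 and -4.79 in control females and -4.75, -4.66, -4.49, -4.28 and -4.21 at 2 mg/kg, with no overlap. In males Cdk1 read -4.48, -3.99, -3.96, -3.66 and -3.58 in controls and -3.89, -3.72, -3.46, -3.23 and -2.64 at 2 mg/kg. Its changes of 0.55 ± 0.41 in males and 0.59 ± 0.41 in females fell to 0.42 and 0.14 with slide as a block.

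Plk1, a kinase of mitotic entry and spindle assembly, read -3.70 to -3.13 in control males, -3.62 to -2.46 in males at 2 mg/kg, -4.20 to -3.91 in control females and -4.11 to -3.33 in females at 2 mg/kg. Aurkb, the kinase of the chromosomal passenger complex, read -2.70 to -1.49 in control females and -2.17 to -0.78 at 2 mg/kg, and -2.17 to -0.70 and -2.04 to -0.70 in the males. It was above background on 16 arrays, and on 1 array in each group at 2 mg/kg. Ccna2, the A type cyclin of S and G2 phase, read -4.14 to -2.85 and -3.57 to -2.25 in males and -4.94 to -3.69 and -4.14 to -2.79 in females. Ccnb2, a B type cyclin, read -2.96 to -1.46 and -2.96 to -1.48 in males and -3.91 to -2.39 and -3.32 to -1.89 in females. The groups overlapped for all 4 genes in both sexes.

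The 5 genes of the spindle checkpoint and chromosome segregation had a median change of 0.51 in males and 0.74 in females, and 0.16 and 0.0392 with slide as a block. Cdc20, the activator of the anaphase promoting complex, read -2.02 to -1.56 in control males and -1.94 to -1.04 at 2 mg/kg, and -2.56 to -2.37 and -2.64 to -2.18 in females. The largest male change of these 5 was that of Mad2l1, a checkpoint protein that holds Cdc20 back, at 0.65 ± 0.37, and it was not called (limma adjusted p 0.33). Birc5, the survivin subunit of the passenger complex, did not overlap between control females and females at 2 mg/kg, and its change of 0.40 ± 0.22 was not called (limma adjusted p 0.251).

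The 6 genes of spindle motors and microtubule binding had medians of 0.33 in males and 0.68 in females, and 0.0287 and 0.0665 with slide as a block. Prc1, which bundles microtubules of the spindle midzone, read -4.53, -4.39, -4.13, -4.10 and -3.55 in control females and -3.93, -3.28, -2.91, -2.64 and -2.45 at 2 mg/kg. Its female change of 1.10 ± 0.49 was 0.24 with slide as a block and was not called in either fit. In males Prc1 read -3.81 to -2.47 in controls and -3.41 to -2.03 at 2 mg/kg. The kinesins Kif11, Kif20a and Kif23 changed by 0.22 to 0.43 in males and by 0.26 to 0.85 in females, and none of them was called.

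**Figure D4:**
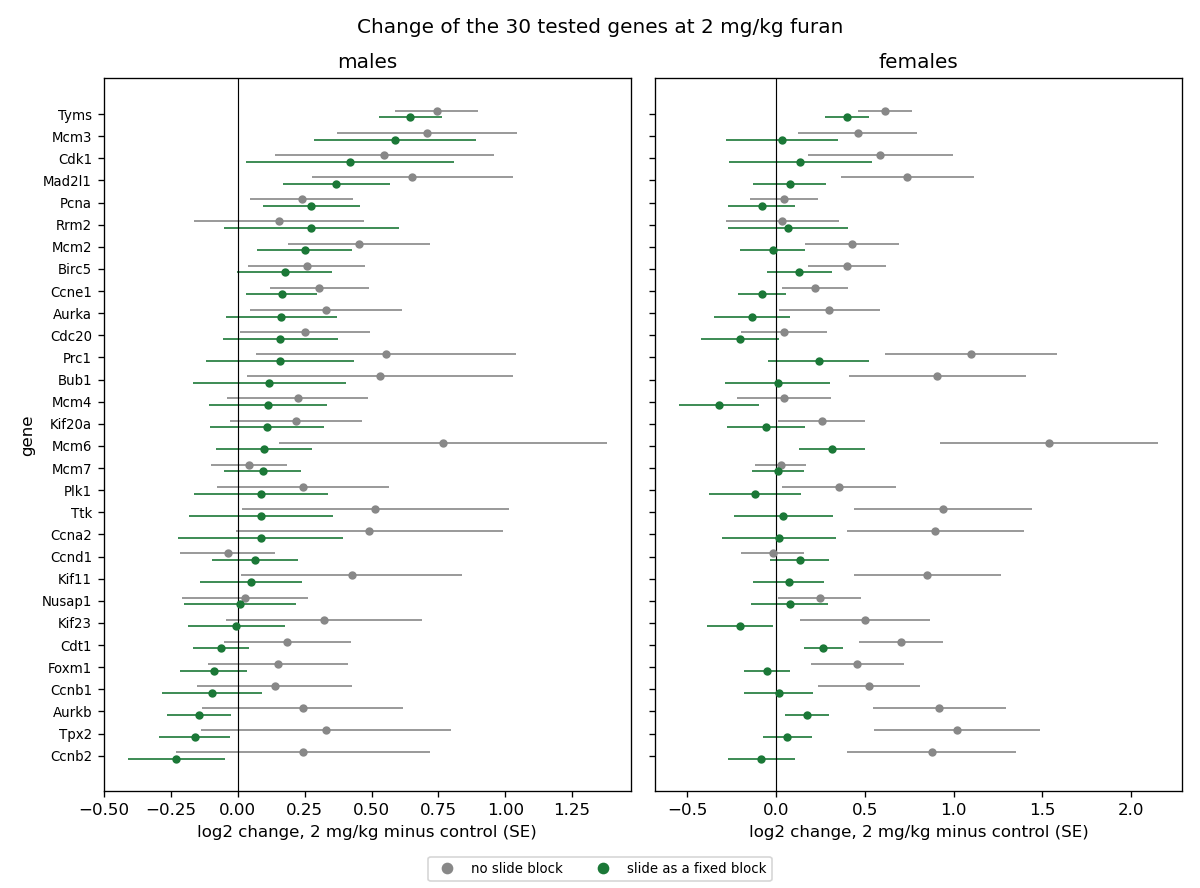
Log2 change with its SE at 2 mg/kg against controls of the same sex for the 30 tested genes, males left and females right, from the fit with group means (grey) and with slide as a fixed block (green). Tyms is the only called gene, in both sexes in grey and in males in green, and most female changes move towards 0 from grey to green.

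Over all 33 genes the median change at 2 mg/kg was 0.26 in males, with 32 genes higher, against -0.0369 for all tested probes, of which 45.2% were higher. In females it was 0.50, with 32 genes higher, against -0.0755 for all tested probes, of which 41.3% were higher. The medians in the blocked fit were 0.0972 in males, with 24 higher, and 0.0325 in females, with 21 higher, against -0.0216 and 0.0081 for all tested probes. The female direction turned under median centring of the arrays in place of loess, at -0.0853 with 15 genes higher, but there the median of all tested probes was -0.49, and the genes stood above it. At an unadjusted p under 0.05 there were 2 of the 30 tested genes in males and 7 in females, against 19.2% and 23.2% of all probes, and 1 and 2 with slide as a block, against 27.4% and 17.6%. Groups without overlap were found for Mcm3 and Tyms in males and for Birc5, Cdk1 and Tyms in females, all higher at 2 mg/kg, where 2.67% and 1.26% of all tested probes were apart in that direction.

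At the lower doses 0 of the 30 genes were called by limma in either sex. In males 0, 0.0396 and 0% of all tested probes were called at 0.03, 0.12 and 0.5 mg/kg, and with slide as a block 0, 0.17 and 0.142%. In females it was 0% at each of these doses, and 0, 0.00566 and 0.017% with slide as a block. At an unadjusted p under 0.05 there were 8, 1 and 0 of the genes in males, against 22.5, 2.24 and 7.17% of all probes, and 1 at each dose in females, against 3.94, 9.16 and 11.5%. The 8 at 0.03 mg/kg in males became 0 without the dim array, and the median change there went from 0.55, with all 33 genes higher, to 0.11, with 24 higher, and to -0.0908, with 6 higher, when slide was a block as well.

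At 0.12 mg/kg 15 of the 33 genes were higher in males, with a median of -0.0061, and 30 were in females, with a median of 0.37. In the blocked fit these were 3 genes with a median of -0.16 in males and 26 with 0.13 in females. At 0.5 mg/kg the medians were 0.25 in males and 0.42 in females, against -0.0256 and 0.16 in the blocked fit. The 4 dose groups of a sex share its 5 controls, so their values are given side by side and no more is read from them. In females the medians with slide as a block were 0.13, 0.13, 0.16 and 0.0325 from the lowest to the highest dose.

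Tyms passed the test of a dose order trend in both sexes. Its means ± SD in males were -0.54 ± 0.22 in controls (n = 5), -0.38 ± 0.36 at 0.03 mg/kg (n = 4), -0.50 ± 0.19 at 0.12 mg/kg (n = 5), -0.30 ± 0.15 at 0.5 mg/kg (n = 5) and 0.20 ± 0.20 at 2 mg/kg (n = 5), so that the mean at 0.03 mg/kg, which includes the dim array, lay above that at 0.12 mg/kg. In females, with n = 5 throughout, they were -0.92 ± 0.19, -0.61 ± 0.35, -0.59 ± 0.23, -0.56 ± 0.22 and -0.31 ± 0.24. Neighbouring female doses from 0.03 to 0.5 mg/kg differed by less than their SD. The change per dose step was 0.16 ± 0.0348 in males (limma adjusted p 0.00842) and 0.13 ± 0.0343 in females (0.027), with 2.43% and 3.73% of all probes called in these trends, which have no fold limit.

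The Tyms trend with slide as a block was 0.13 per step in males (limma adjusted p 0.000924), with 11.8% of all probes called, and 0.0841 in females (0.0557), with 6.26% called. It was the only one of the 30 genes called in the male trend under both fits and in the female trend with group means, and 0 were called in the female trend with slide as a block, where 1 passed an unadjusted p of 0.05. Without the dim array Mcm3 was called in the male trend as well, at 0.16 per step (limma adjusted p 0.0244), where 6.64% of all probes were called. Without it and with slide as a block the male trend called Tyms, Mcm3, Mcm2 and Pcna, 4 of 30 genes where 24.4% of all probes were called, and the female trend called Tyms (0.0894, limma adjusted p 0.0182), where 11.9% were. The female trend of Tyms was also called with slide as a random block (0.0912, limma adjusted p 0.0277), where 7.71% were.

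A change at any dose, tested with the limma F test over the 4 doses of a sex, passed for Tyms in males (adjusted p 0.0182, 1.37% of all probes called) and for 0 genes in females (0.0906% called), where Tyms had the smallest unadjusted p, 0.00735. In the blocked fit the male p for Tyms was 0.000558 after adjustment, with 12.1% of all probes called, and 0 genes passed in females, with 0.804% called. After Tyms, the smallest unadjusted any-dose p were those of Mcm3 (0.0503), Rrm2 (0.0788) and Ccne1 (0.0831) in males and of Cdt1 (0.0736), Aurkb (0.16) and Mcm6 (0.169) in females. Without the dim array and with slide as a block 6 genes passed in males, namely Tyms, Mcm2, Mcm3, Ccne1, Pcna and Rrm2, where 18.2% of all probes did, a share near that of the genes.

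Whether the sexes differed in their change at 2 mg/kg was tested by an interaction term, for which limma called 0 of the 30 genes, with 0 at an unadjusted p under 0.05, against 0.0113% of all probes called. The blocked fit called 0, with 1 at an unadjusted p under 0.05, against 0.108%. The male change of Tyms was larger than the female by 0.13 ± 0.22 and by 0.25 ± 0.16 with slide as a block (limma adjusted p 0.997 and 0.498). The call of Tyms in the blocked fit in males and not in females therefore does not show a difference between the sexes.

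Without furan the genes were higher in male than in female livers. All 33 were higher by their means in control males, with a median difference of 0.51, against 0.0072 for all tested probes, of which 51.5% were higher. With slide as a block 32 were higher with a median of 0.43, with median centring 28 and with the liver channel alone 30. These counts include Ccne2, Cdc6 and Rrm1, which were not tested. Ccne2 was above background on 0 control arrays. Cdc6 was so on 3 female and 0 male control arrays, and Rrm1 on 0 female and 2 male control arrays. The direction of these untested genes carries no weight in the counts between the sexes. Aurkb, Cdt1 and Mcm6 reached the tested probes only through control males, and Kif11 only through male groups. Their direction carries no weight in these counts either. The difference was largest for Rrm2, at 1.27 ± 0.32, a fold of 2.41 (limma adjusted p 0.0104), from the 10 control values given above, in which every male lay above every female. It was 1 called gene of 30, where 3.1% of all probes were called. The call was lost with median centring (0.90, limma adjusted p 0.948) and in the liver channel alone (1.14, 0.111), in which Cdk1 was called instead (0.90, 0.0328).

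Taking slide as a block, limma called 4 of the 30 genes higher in control males, where 5.51% of all probes were called. They were Rrm2 (1.22, fold 2.33, limma adjusted p 0.00726), Ccnb2 (0.71, fold 1.64, 0.00458), Prc1 (0.83, fold 1.78, 0.033) and Mcm6 (0.61, fold 1.53, 0.0135). In control males Ccnb2 read -2.96, -2.73, -2.70, -2.31 and -1.46 and in control females -3.91, -3.39, -3.30, -3.29 and -2.39, so the groups overlapped while the within-slide differences did not straddle 0. Prc1 read -3.81, -3.36, -3.14, -3.12 and -2.47 in control males. Mcm6 was above background on 4 male and 3 female control arrays and reached the tested probes only through the control males, the group in which it was higher, so its call carries no weight in this comparison. Without the dim array 4 genes were called, Rrm2, Cdk1, Cdc20 and Nusap1, where 3.87% of all probes were. Without it and with slide as a block 11 were called, where 6.42% of all probes were. These 11 hold Mcm6 and Kif11. Kif11 reached the tested probes only through male groups, so neither of these calls carries weight.

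The control pairs of slides 1 to 4 give the comparison inside a slide, 1 male against 1 female each. In 129 of the 132 values the male was higher, and 30 of the 33 genes were higher in the male on all 4 slides, where 25.6% of all tested probes were. The exceptions were Pcna, Mcm4 and Ccne2. The 30 include Cdc6, Rrm1, Aurkb, Cdt1, Mcm6 and Kif11, whose direction carries no weight. The 33 values of a pair come from the same rats and are not repeat observations. Rrm2 was higher by 1.15, 1.21, 1.72 and 1.39 on slides 1 to 4. Ccnb2 was higher by 0.98, 0.57, 0.69 and 0.95, and Prc1 by 0.95, 0.77, 1.27 and 0.72. Between the 5 male and 5 female controls as a whole, 7 genes did not overlap, all higher in males, namely Birc5, Cdc20, Cdk1, Mcm7, Nusap1, Plk1 and Rrm2, where 2.65% of all tested probes were apart in that direction.

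**Figure D5:**
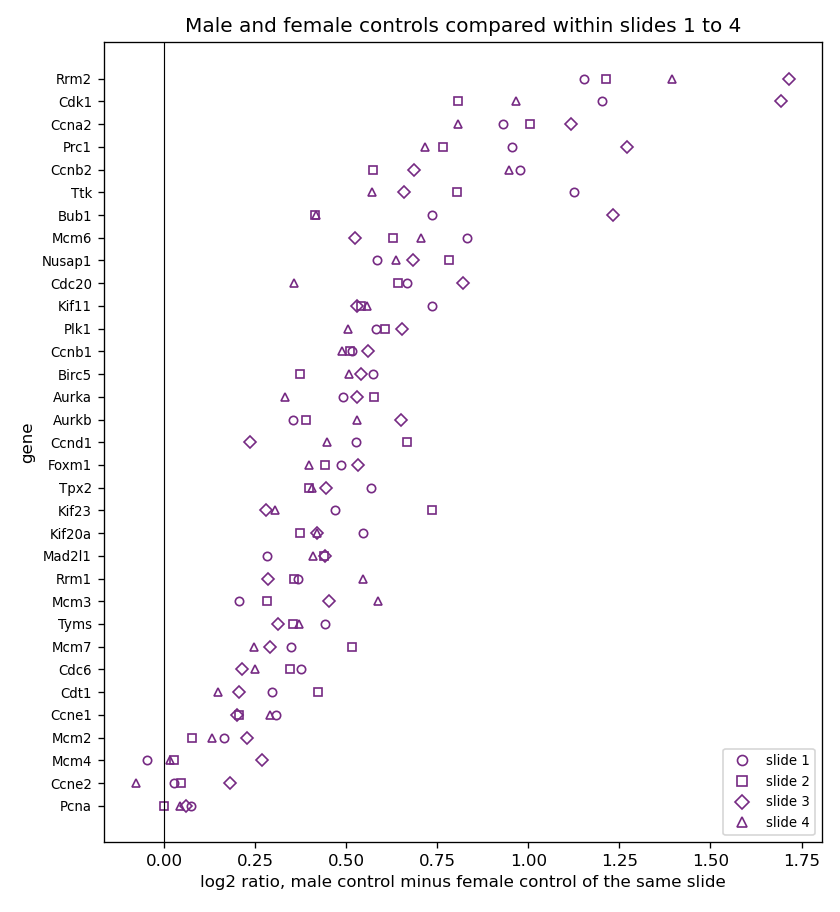
Log2 ratio of the male control minus that of the female control on the same slide (horizontal axis) for each of the 33 genes, with 1 symbol for each of slides 1 to 4. Rrm2 lies furthest to the right at 1.15 to 1.72, and 3 genes at the bottom, Mcm4, Ccne2 and Pcna, reach below 0.

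The mitotic groups stood further from 0 in this comparison than the licensing genes by their medians. The median difference of the 5 spindle checkpoint genes was 0.63, of the 6 motor and microtubule genes 0.61 and of the 8 mitotic cyclins, kinases and Foxm1 0.60. It was 0.29 for the 10 genes of G1 and licensing, and Pcna, at 0.0714, was the lowest of the 33. These medians were, when slide was a block, 0.59, 0.50, 0.50 and 0.25. The groups of genes were not tested against each other.

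Over all doses, each sex taken as the mean of its 5 groups, all 33 genes were higher in males, with a median of 0.38, and 5 of 30 were called, where 5.05% of all probes were. They were Rrm2 (1.04, fold 2.06, limma adjusted p 2.55e-07), Cdk1 (0.94, fold 1.92, 0.000136), Cdc20 (0.67, fold 1.59, 8.18e-06), Ccna2 (0.66, fold 1.58, 0.0278) and Prc1 (0.60, fold 1.52). With slide as a block the same 5 were called, against 5.15% of all probes. Rrm2 and Cdk1 alone were called without the dim male array, at 0.93 and 0.76, where 5.03% of all probes were, and that array lay at -1.25 for Rrm2 while the other 3 males of its group lay between -3.82 and -3.40. Tyms differed by 0.29 (fold under the limit, limma adjusted p 0.0014).

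The sex difference of Rrm2 was seen on each of the 8 slides, between 0.56 on slide 5 and 1.71 on slide 3, over all arrays of a slide but the dim one. On each of the 8 slides 29 to 33 of the 33 genes were higher in males. The doses of the males and females on a slide were not matched, and the share of all probes within a slide is not given here. A second probe of Rrm2, above background on 8 arrays, gave 0.95 ± 0.52 between male and female controls. The reference channel alone, which holds the same RNA on every array, gave a median difference of 0.0141 between male and female controls over the 33 genes and -0.0186 for Rrm2, and limma called 0 of the genes in it. At 2 mg/kg its medians were -0.032 in males and -0.0622 in females, and limma called 0 of the genes in it. Tyms changed by -0.1705 in males and -0.1738 in females in the reference channel, beside ratio changes of 0.74 and 0.61. A lower reference raises the ratio, and its part in the Tyms changes was not tested.

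A wider list held 81 further genes of DNA replication and cell division, of which 64 had a probe and 48 were tested. At 2 mg/kg 0 were called in males, where 52 of 64 were higher with a median of 0.20. In females 1 was called, and 58 were higher with a median of 0.42. Of all tested probes 2.22% were called in males and 0.668% in females. In the blocked fit 34 were higher in males and 42 in females, with medians of 0.0051 and 0.0479. The female call was Mcm10, which helps to load polymerase alpha at origins, at 0.73 (limma adjusted p 0.0423) and at 0.66 with slide as a block (0.0417). In males Mcm10 changed by 0.0975, and the 3 largest changes there were 0.62 for Gins1, 0.58 for Nuf2 and 0.57 for Mybl2, none of them called.

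Between control males and females 2 genes of this list were called, both higher in males: Hells, a chromatin remodelling helicase, by 1.59 (limma adjusted p 1.61e-07) and Mcm10 by 1.02 (0.000115). Of all tested probes 3.1% were called there, a share near that of the list. With slide as a block 7 were called, all higher in males, where 5.51% of all tested probes were. The added ones were Chaf1b, Ndc80, Nuf2, Spc25 and Ube2c. By their means 59 of the 64 were higher in males, and 56 with slide as a block.

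Of 21 inhibitors of the cell cycle and partners of p53 and Rb, 19 had a probe and 18 were tested. In males at 2 mg/kg Ccng1, a cyclin G that p53 induces, rose by 1.27 (limma adjusted p 0.0102), while Gadd45g, a stress sensor, fell by 1.67 (0.013) and Rb1, the retinoblastoma protein that holds E2F factors back, fell by 0.70 (0.0187). With slide as a block they were called again, at 1.01, -1.65 and -0.61. Of all tested probes 2.22% were called in males, and 3.81% with slide as a block. In females Rb1 fell by 0.69 (0.0464), which was -0.48 and not called with slide as a block, and Ccng1 stood at 0.87 (0.104). Between the control sexes Chek1 and Ccng2 were lower in males, by -1.01 and -0.89. Of all tested probes 3.1% were called there, and 0.668% in females at 2 mg/kg.

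Of 16 genes of the immediate early response and growth factor signalling, 15 had a probe and were tested. At 2 mg/kg limma called 0 in either sex. At an unadjusted p under 0.05 there were 1 in males and 3 in females, against 19.2% and 23.2% of all probes. The largest changes were -0.82 for Jun, 0.66 for Atf3 and 0.64 for Ccn2 in males, and -0.76 for Jun, 0.63 for Fos and -0.53 for Hgf in females. None of them was called with slide as a block.

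Markers of other cell types moved beside the genes in some groups. Bile duct markers were measured for 5 of 6 and were higher by their means at 2 mg/kg in all 5 in each sex. In males Epcam (0.98, limma adjusted p 0.00937) and Cftr (0.77, 0.0452) were called, where 2.22% of all probes were. Krt19 was called as well when slide was a block, where 3.81% were. Cftr was above background on only 14 arrays. Their summed liver signal was 898 to 1020 in control males and 1060 to 2590 in males at 2 mg/kg, and 875 to 987 and 1030 to 1300 in females, so that controls and 2 mg/kg did not overlap in either sex. Stellate cell markers, 6 of 6 measured, summed to 4910 to 7100 and 5540 to 21800 in males and to 4740 to 7390 and 4860 to 6990 in females. Kupffer cell markers, 6 of 6, summed to 7050 to 10800 and 4980 to 9800 in males and to 9890 to 14700 and 7810 to 13100 in females.

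Lymphocyte markers, 4 of 6 measured, summed to 411 to 494 and 417 to 674 in males and to 475 to 581 and 493 to 561 in females, and none of them was above background on 48 arrays. Red cell precursor markers, 5 of 6, summed to 42100 to 109000 and 29200 to 64100 in males and to 51700 to 76300 and 33700 to 82100 in females. Hepatocyte markers, 8 of 8, summed to 641000 to 752000 and 677000 to 832000 in males and to 722000 to 821000 and 735000 to 812000 in females. As log2 ratios all 8 hepatocyte markers were lower at 2 mg/kg in each sex, with medians of -0.87 in males and -1.03 in females and 0 called. In the fit with slide as a block all 8 were lower in males, with a median of -0.46 and 1 called, and 3 of 8 in females, with a median of 0.0542. No list had a marker above background on 0 arrays. Except for the bile duct list, these sums overlapped between controls and 2 mg/kg in both sexes. The part of these cell types in the changes of the DNA replication and mitosis genes was not tested.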

How the data were processed

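Liver RNA was measured on 49 arrays of 2 colours, with liver in Cy5 and the reference in Cy3. The deposited scanner files, written by Agilent Feature Extraction 10.7.3.1 from a design annotated on rn4 per the file headers, give median pixel intensity of spot and background in each channel, a log10 ratio normalised by the scanner software, and marks of 0 or 1 for spot quality. The deposited series matrix holds log2 ratios that the authors normalised in R. For only 7 of 49 arrays did its best matching column belong to the same animal, and for 46 to the same group, so it was used by group alone.

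Intensities were background corrected by normexp (offset 50) and then loess-normalised within each array (R 4.3.3, limma 3.58.1), and the data.table package (version 1.17.8) read the files. Flagged spots were left out and spots of a probe averaged. Probes were named through RefSeq tables of the GRCr8 assembly, which named 18004 of 30367 probes. Tests took the probes that stood well above background in the liver channel on 4 or more arrays of some group. The number of arrays limits the precision.

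One limma model over all arrays gave each group a mean and shared the spread, with 2-sided tests and Benjamini-Hochberg adjustment over 17661 probes. Calls needed an adjusted p of at most 0.05 and a fold of at least 1.5, except in F tests and dose order trends, which had no fold limit. The trend took the 5 doses as equal steps. Slide is the number carried by the deposited files. The labels tell of 1 male array that failed quality control and was eliminated, and they do not name it. The study used 5 rats for each sex and dose. The males at 0.03 mg/kg have 4 arrays here, the dim male 26 among them. Male 26 was kept, with values without it beside. Each array is 1 rat.

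The genes and all lists were chosen with earlier results of these data known. Values by animal are given for genes called in any comparison with or without slide as a block, for the 8 genes above background on the most arrays and for the 4 genes with the smallest any-dose p in each sex. Of the other lists, genes called at 2 mg/kg are named, or else the 3 with the largest changes. Genes named for a lack of overlap, or as the lowest or highest of a group, and those called between the sexes in other lists were named after their values were seen. The scripts were tested on simulated data. Alternatives changed the slide term, the arrays, the normalisation, the background correction, the filter, the array weights and the choice of probe.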

Additional observations from a re-analysis of the deposited data

Results flagged for a closer look

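In 13 of 330 tests of a gene in a group of 4 or 5 livers, 1 liver stood apart from the others by Dixon's test, and chance flags about 1 group in 20. Male 26 at 0.03 mg/kg, the dim array, stood apart in Nusap1 (-0.077), Pcna (-0.117) and Rrm2 (-1.246), all higher than in the other 3 males. The controls that were not on slides 1 to 4 were apart in 4 tests: female control 4, on slide 7, in Mcm6 (-2.044) and Rrm1 (-0.453), and male control 6, on slide 8, in Rrm1 (-0.424) and Tpx2 (-0.87), all higher than the other controls of their sex. Female 90 at 2 mg/kg was low in Mcm6 (-3.2). Lower than the rest of their groups were also female control 2 in Birc5 (-2.84) and male 65 at 0.5 mg/kg in Cdk1 (-4.54). Higher were female 85 at 2 mg/kg in Ccne1 (-1.193), male 52 at 0.12 mg/kg in Ccnb1 (-1.799) and female 51 at 0.12 mg/kg in Ccnd1 (-0.979). All values are log2 ratios of liver over reference, and no cause was tested.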

How the results depend on the processing

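Both median differences between the sexes and the interaction count of 0 called genes (limma, 0 at an unadjusted p under 0.05) moved by less than the spread of the groups, or stayed within 1.5 times, under all 15 alternatives and with each of the 49 arrays left out. The male median at 2 mg/kg, 0.26, moved by less than the spread of control males but by over 1.5 times with slide as a fixed block (0.0972), with the fixed block and without the dim array (0.0924), with slide as a random block (0.1406), in the liver channel alone (0.1662) and with array weights (0.4116). With 1 array left out it ranged from 0.1767 to 0.4197, and it was over 1.5 times larger without male control 6 (0.4197), furan male 84 (0.4058) or furan male 86 (0.3999). The female median at 2 mg/kg, 0.50, was 0.0325 with slide as a fixed block, 0.1006 with slide as a random block, 0.1333 with the fixed block and without the dim array, -0.0853 with median centring, 0.1158 from the scanner's log ratio and 0.0184 from the liver channel alone, where the medians of all probes were -0.4928 with median centring, a shift of all probes, and between -0.0977 and 0.0081 in the others named. Of 1 called gene at 2 mg/kg in males there were 2 without the dim array, 0 with median centring and 3 with array weights. Over all tested probes these settings called 740, 11 and 2007, against 392 in the main fit. In the liver channel alone the 1 gene was Mcm3 in place of Tyms. In females the count of 1 became 0 with the fixed block, the random block, the fixed block without the dim array, median centring, the scanner's ratio, the liver channel, a normexp offset of 10, no background correction, no filter and without slides 5 and 6 (chosen after seeing the data), and 16 with array weights. Over all tested probes these settings called, in this order, 116, 152, 248, 0, 115, 20, 171, 74, 59, 0 and 3546 in females at 2 mg/kg, against 118 in the main fit. With median centring and without slides 5 and 6 the count over all probes was itself 0, so the 0 of these genes carries no information there. The trend count of 1 in males was 2 without the dim array, 4 without it and with the fixed block and 0 with median centring. It was 3 in the series matrix, 5 in the liver channel and 2 with array weights. Of all tested probes 2.43% were called in the male trend of the main fit. This was 6.64% without the dim array and 24.4% without it and with the fixed block. In the female trend it was 0 with the fixed block, median centring, the scanner's ratio, the liver channel and without slides 5 and 6. With array weights it was 18. The share of all probes in that trend is not given here, so the 18 is not read as a result on these genes. Between control sexes the count of 1 was 4 with the fixed block and 6 with the random block. It was 4 without the dim array and 11 without it and with the fixed block. It was 0 with median centring, 2 in the series matrix, 2 from the scanner's ratio and 5 with array weights. Over all tested probes these settings called, in this order, 973, 973, 684, 1134, 279, 651, 535 and 946, against 547 in the main fit. In the liver channel alone the 1 gene was Cdk1 in place of Rrm2.

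With each array left out in turn these counts ranged from 1 to 2 in males and 0 to 2 in females at 2 mg/kg, from 1 to 2 and 0 to 2 in the trends and from 1 to 4 between control sexes. The male and sex counts moved without the dim array. The female count at 2 mg/kg was 0 without control 2, 7 or 9 or without furan animal 82, 83, 85 or 92, and 2 without control 4 or furan animal 90, and the female trend was lost without control 2 or 9 or furan animal 85 or 92. With the fold limit Tyms in males missed the call in the liver channel alone (0.54, limma adjusted p 0.0125). With median centring Tyms in males gave 0.67 (limma adjusted p 0.494, with a range of 0.000981 to 0.0221 over arrays left out) and Rrm2 between control sexes 0.90 (0.948), which was 1.14 (0.111) in the liver channel alone. The causes were not tested. No animal number occurs in both groups of a dose comparison. Between the sexes 8 numbers occur at the same dose in a male and a female rat, and the labels say nothing of a link between them. The deviations of such pairs from their group means correlated from -0.271 to 0.569 over all tested probes. A fit with animal number as a replicate block over these 16 arrays was chosen after seeing the data. It called 2 genes between control sexes from 2 pairs, with a median difference of 0.46. Over all tested probes it called 227, and it had only 4 residual degrees of freedom. Signal over background limits the 9 genes seen on 24 or fewer arrays.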
